A study of Mus musculus with 19 samples.

Results

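Cd38 and 9 genes that release, refill or sense calcium in the intracellular store were followed through nuclear RNA of astrocytes from the mouse cortex. CD38 is a membrane enzyme that turns NAD into ADP-ribose and into cyclic ADP-ribose, a messenger that opens calcium stores. The members were taken by symbol from a table of 24537 genes: Cd38, the IP3 receptors Itpr1, Itpr2 and Itpr3, the ryanodine receptors Ryr2 and Ryr3, the SERCA pumps Atp2a2 and Atp2a3, and the pair Stim1 and Orai1. All 10 were listed, and all 10 had a mean of at least 1 TPM, a transcript abundance scaled for gene length, which was the filter for testing. The list had been chosen by the measured levels of Cd38 and Atp2a3, which differ by genotype label. Their genotype differences are therefore given as a description with no test, and the other 8 members were tested.

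The nuclei came from the cortex of C57BL/6J mice on postnatal day 26, 27 or 28 and were SOX9-positive and NEUN-negative by sorting: SOX9 marks astrocyte nuclei, NEUN those of most neurons. All 19 libraries were from Smad4 fl/fl genotypes, and all were from males, whose Fmr1 allele was given as +/y or -/y. The 4 WT libraries were Fmr1 +/y without Cre, and the 6 Smad4 cKO libraries were Fmr1 +/y with the Gfap-Cre73.12 transgene, which drives Cre from a Gfap promoter. The 5 Fmr1 KO libraries were Fmr1 -/y without Cre, and the 4 double mutant libraries were Fmr1 -/y with Cre. SMAD4 is the common partner of BMP and TGF-beta SMADs, and Fmr1 encodes FMRP, an RNA-binding protein whose loss causes fragile X syndrome. Since every Cre-positive genotype had floxed Smad4 and no group had Cre alone, loss of Smad4 and presence of Cre cannot be told apart.

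Read totals are unknown, because the table gives TPM and no counts. The listed TPM summed to between 665382 and 716222 per library, and between 17513 and 18692 genes were above 0. The gene-level value of Smad4 lay between 32.1 and 33.2 in the 4 group means, and Fmr1 was higher in libraries labelled Fmr1 KO (38.8 ± 1.94 scaled TPM, SD, n = 5) than in WT (26.1 ± 4.27, n = 4). A gene-level value resolves neither allele, so libraries are named by their labels. Summed over 9 astrocyte markers, libraries held 4690 to 7760 scaled TPM, against 43.9 to 240 for 9 neuron markers and 220 to 3270 for 6 oligodendrocyte markers. Astrocyte markers led in every library, beside RNA of other cell types in amounts that varied between libraries. There were 8 libraries from day 26, 9 from day 27 and 2 from day 28. The labels do not say which libraries came from separate animals, so that p-values measure the spread between libraries.

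Astrocytes raise their cytosolic calcium largely from the endoplasmic reticulum. Receptors coupled to Gq activate phospholipase C, which makes IP3, and IP3 opens its receptors, of which IP3R2 (Itpr2) is the best studied in astrocytes. Cyclic ADP-ribose acts through ryanodine receptors, SERCA pumps return the calcium to the store, and STIM1 senses an emptied store and opens ORAI1 in the plasma membrane. CD38 is found in astrocytes, in immune cells and elsewhere.

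The genes that chose the list are shown first by a short sequence at their starts, because their levels separated by different genotype labels. RefSeq windows on GRCm38.p6, from 250 bases before the RefSeq start to 50 after, were matched for 7 of the 10 members. The search covered 3 short sequences known from SMAD binding studies, on both strands: CAGAC, the core to which SMAD4 binds, its palindrome GTCTAGAC, and GGCGCC. The 29 bases around each CAGAC match are printed, with the match in capitals, written GTCTG where it lies on the other strand. They are chr5:43868661-43868689 for Cd38 and chr11:72961003-72961031 for Atp2a3, both given on the plus strand.
Cd38: gtttgctctggaGTCTGgaagtaagcagt
Atp2a3: cccccagctttgCAGACcgagttcgaggc
The match begins 136 bases before the RefSeq start in Cd38 and 154 bases before it in Atp2a3. For Atp2a3 RefSeq and GENCODE give the same start, 72961169. For Cd38 the RefSeq start (43868809) lies 256 bases inside the GENCODE gene, which begins at 43868553. By GENCODE the Cd38 window and its match are thus downstream of the gene start, within the span of the gene. GENCODE transcripts were not compared. CAGAC was found in 4 of the 7 member windows (Cd38, Itpr2, Itpr3 and Atp2a3) and in 49.6% of 32851 RefSeq windows of that length. GTCTAGAC (0.213% of all windows) and GGCGCC (11.9%) were in 0 of the 7. GC content was 51.7% in the Cd38 window and from 65.3% to 78.7% in the other 6. These are matches of letters and say nothing of binding.

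Cd38 was the member whose levels separated by the Smad4 label, 3.49 and 3.1 times as high on average in Cre-positive libraries. In scaled TPM (TPM over a scaling factor of 0.921 to 1.07 per library), the WT libraries stood at 9.69, 11.3, 6.66 and 11.2. Smad4 cKO libraries ran from 22.7 through a median of 36.5 to 40.9. Every Smad4 cKO library was above every WT library. Fmr1 KO libraries stood at 6.33, 16, 5.23, 5.43 and 11.5, and double mutant libraries at 32.6, 23.5, 24.2 and 30.1. The same order held in the libraries labelled Fmr1 KO, and the highest of 9 Cre-negative libraries (16) was below the lowest of 10 Cre-positive libraries (22.7). How large a share of all genes separates in this way was not counted.

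The means were 9.71 ± 2.16 (SD, n = 4) for WT and 33.9 ± 7.31 (n = 6) for Smad4 cKO, a ratio of 3.49. They were 8.91 ± 4.74 (n = 5) for Fmr1 KO against 27.6 ± 4.46 (n = 4) for the double mutant, a ratio of 3.1. On the scale of log2(scaled TPM + 1), which understates changes of low genes, the Cd38 differences by the Smad4 label were 1.70 ± 0.26 (SE) and 1.64 ± 0.27. They averaged 1.67 ± 0.19, and differed from each other by -0.06 ± 0.37. By the Fmr1 label the averaged Cd38 difference was -0.24 ± 0.19, and 0.11 with the endothelial marker sum as a covariate. Within day 26 the difference by the Smad4 label was 1.75 (5 Cre-positive, 3 Cre-negative libraries) and within day 27 it was 1.69 (4 and 5). Over 27 alternatives the averaged value lay between 1.57 and 1.78. Postnatal day was independent of the choice of the list, and Cd38 did not pass between day 27 and day 26 (-0.27 ± 0.20, adjusted p = 0.455 by limma). Of 48 tested markers of 8 cell types, 0 passed by the Smad4 label averaged over both Fmr1 labels, and 29 were above 0. The 6 oligodendrocyte markers were all above 0 there, with a median of 0.51, and their part in the Cd38 difference was not tested.

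**Figure D1:**
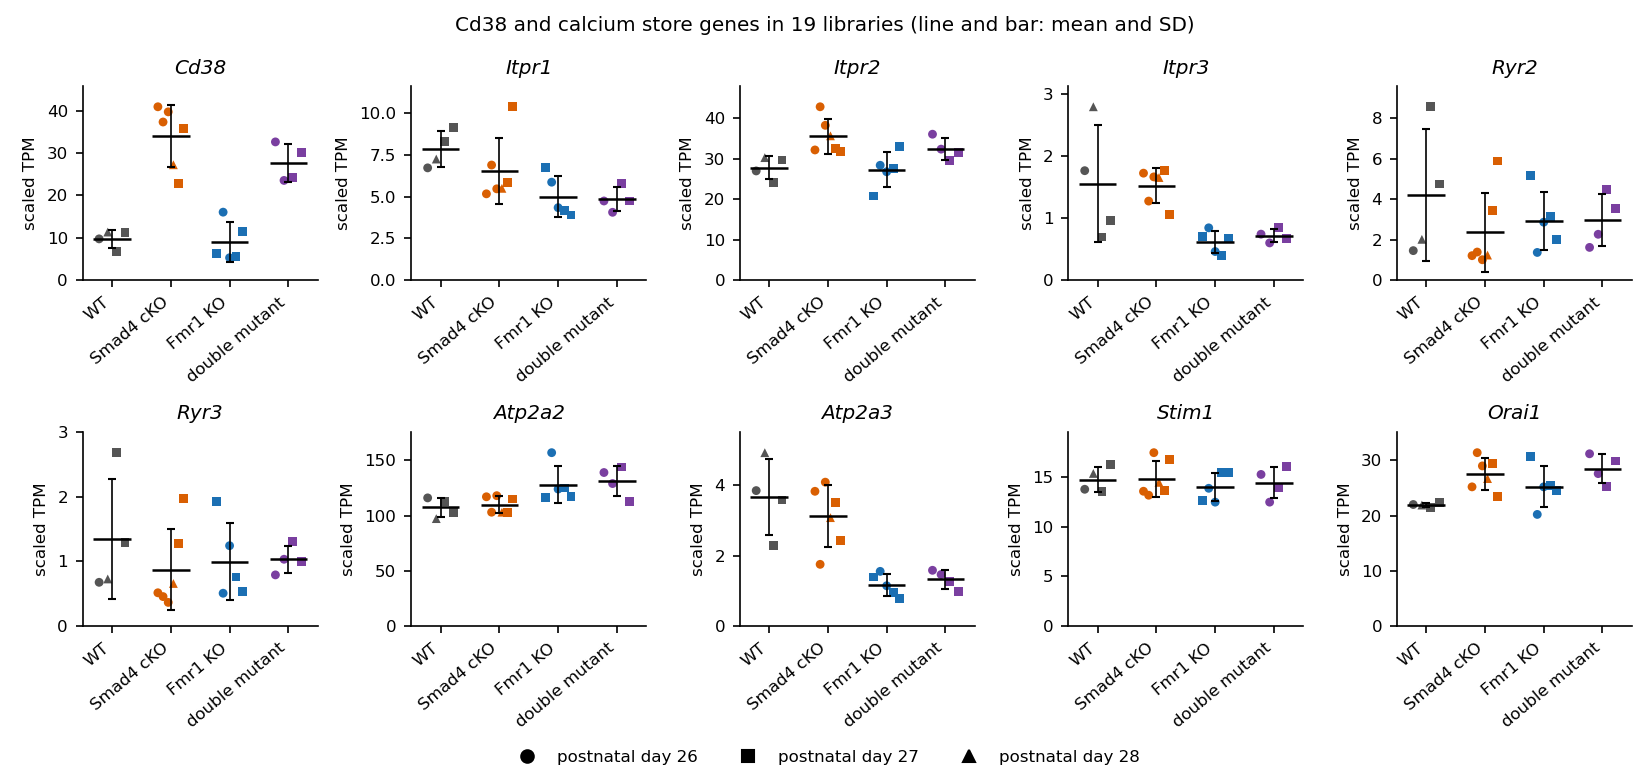
Scaled TPM of the 10 members (y axes, from 0) in each of 19 libraries, by genotype (x axes), with point shape for postnatal day and a line and bar for the group mean and SD. Cd38 lies at 22.7 or above in Cre-positive libraries and at 16 or below in the others; Atp2a3 lies at 1.75 or above in libraries labelled Fmr1 intact and at 1.58 or below in those labelled Fmr1 KO.

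Cd38 also varied within a genotype. In Fmr1 KO, replicates 2 and 5 (16 and 11.5) stood above the other 3 (5.23 to 6.33). The summed astrocyte markers of the 5 libraries, in replicate order, were 4690, 7760, 4740, 5370 and 5610. Those 2 libraries of highest Cd38 therefore also had the highest astrocyte sums of the group, and the part of that sum in Cd38 was not tested. In bulk nuclei, fewer cells of a type and less RNA per cell cannot be told apart.

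Genes nearest to Cd38 in pattern were found by Pearson correlation over the 19 libraries, as a description, since libraries of a genotype share its label and composition. On levels they were Ltbp3, which encodes a latent TGF-beta binding protein (r = 0.95), the R-spondin Rspo3 (0.948), the ubiquitin ligase Mid1 (0.946), the matricellular gene Smoc1 (0.941) and the ectodysplasin gene Eda (0.936). Eda had means of 10.5 ± 2.28 scaled TPM (SD, n = 4) in WT and 21.8 ± 2.3 (n = 6) in Smad4 cKO. On deviations from the genotype means, which leave the labels out, they were Abca5 (r = 0.913), Scara3 (0.912), Maob (0.894), Sycp2 (0.887) and Thrsp (0.886). Maob encodes monoamine oxidase B, an enzyme abundant in astrocytes. The r between Cd38 and Atp2a3 was 0.237 on levels and 0.213 on deviations.

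Cd38 spans 43868553 to 43912375 on chromosome 5 (plus strand, GRCm38, GENCODE, protein-coding). Its paralog Bst1, also an ADP-ribosyl cyclase gene, ends 25341 bases from the RefSeq start of Cd38. Bst1 was low, with group means between 0.278 and 0.36 scaled TPM, and did not reach the filter. Of the 4 nearest genes, Fbxl5 and Prom1 were tested, and neither passed by either averaged label (Fbxl5 0.04 ± 0.07 by Smad4; Prom1 -0.12 ± 0.20 by Smad4 and -0.75 ± 0.20 by Fmr1, adjusted p = 0.073). Prom1, which encodes prominin-1, passed by the averaged Fmr1 label in 2 of 27 alternatives. It was at -0.06 with the endothelial marker sum as a covariate, a sum itself lower by that label. The part of endothelial RNA in the Prom1 difference was not tested.

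The IP3 receptors did not pass by any label, against 0.784% of 15049 genes that passed in Smad4 cKO against WT and 0.405% in the double mutant against Fmr1 KO. Itpr2 (chromosome 6, 146108299 to 146502223, minus strand) had the highest level per length, with 27, 30.3, 24.1 and 29.7 scaled TPM in WT and 31.9 to 42.9 (median 34.2) in Smad4 cKO. The lowest Smad4 cKO library lay above the highest WT library, but Itpr2 did not pass between these groups (adjusted p = 0.244 by limma). The share of all genes separated in this way was not counted. In Fmr1 KO the values were 20.8, 28.4, 26.8, 27.6 and 33.1, and in the double mutant 36.1, 32.4, 29.5 and 31.6, so that these groups overlapped. Averaged over both Fmr1 labels, Itpr2 differed by 0.30 ± 0.08 (SE) with the Smad4 label (adjusted p = 0.0753). That average called 1.81% of all genes and 0 of the 8 tested members. Its adjusted p ranged from 0.0348 to 0.166 over 27 alternatives, and Itpr2 passed in TPM as deposited (adjusted p = 0.046) and without Fmr1 KO replicate 5 (0.0348). Within day 26 the difference was 0.39, and within day 27 it was 0.22. As a share of the summed level of the 3 IP3 receptors, Itpr2 was 74.6% ± 1.38 (SD, n = 4) for WT and 81.4% ± 4.04 (n = 6) for Smad4 cKO. The share was 82.6% ± 5.61 (n = 5) for Fmr1 KO and 85.3% ± 2.61 (n = 4) for the double mutant.

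Itpr1 (chromosome 6, 108213096 to 108551109, plus strand), the main form of neurons, stood at 6.73, 7.26, 8.33 and 9.13 scaled TPM in WT and 6.74, 5.87, 4.34, 4.19 and 3.9 in Fmr1 KO. Replicate 1 of Fmr1 KO, with the highest neuron-marker sum of its group (185), lay at the lower edge of WT and the others below it. Smad4 cKO ran from 5.17 through 5.69 to 10.4, and the double mutant held 4.74, 4.06, 5.8 and 4.74. Itpr1 differed by -0.46 ± 0.12 with the Fmr1 label averaged over both Smad4 labels (adjusted p = 0.0697), a comparison in which 1.53% of genes passed. Neuron markers had 8 of 9 above 0 by that label and 0 passing. Itpr1 passed without Fmr1 KO replicate 1 (-0.51, adjusted p = 0.0479) and without the 4 libraries of highest neuron-marker sum, 1 of each genotype (-0.47, adjusted p = 0.0305). Over all 27 alternatives its adjusted p ran from 0.0305 to 0.421.

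Itpr3 (chromosome 17, 27057304 to 27122223, plus strand), a form of many epithelia and other cells outside the nervous system, was near the filter. WT libraries held 1.76, 2.79, 0.69 and 0.956 scaled TPM, Smad4 cKO 1.06 to 1.76 (median 1.66), Fmr1 KO 0.693, 0.839, 0.457, 0.398 and 0.668, and the double mutant 0.737, 0.596, 0.839 and 0.673. Libraries labelled Fmr1 KO reached 0.839 at most, and of the 10 labelled intact only WT replicate 3 was below that. It passed the filter on low values through the Fmr1 intact groups, which then had to be the higher ones. Its difference was -0.58 ± 0.14 with the averaged Fmr1 label (adjusted p = 0.0511). Since the filter fixed that direction, no support is drawn from this test or from the 5 of 26 alternatives in which Itpr3 passed, among them the fit without WT replicate 3 (-0.66, adjusted p = 0.0109). Endothelial markers, given with Atp2a3, were lower by the same label, and with their sum as a covariate Itpr3 was at -0.18 (adjusted p = 0.68). The part of endothelial RNA in the Itpr3 difference was not tested.

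The ryanodine receptors overlapped in all 4 genotypes, and by day Ryr2 passed and Ryr3 did not. Ryr2 (chromosome 13, 11553102 to 12106945, minus strand), the form of heart and of most brain neurons, stood at 1.45, 2.01, 8.58 and 4.75 scaled TPM in WT, and at 0.998 to 5.89 (median 1.3) in Smad4 cKO. It stood at 5.16, 1.36, 2.86, 3.16 and 2 in Fmr1 KO and at 1.61, 2.26, 4.46 and 3.55 in the double mutant, and the highest library was WT replicate 3. Ryr3 (chromosome 2, 112631355 to 113217096, minus strand) stayed between 0.362 and 2.68 in all libraries. By the Smad4 label the averaged differences were -0.27 ± 0.30 (SE) for Ryr2 (adjusted p = 0.865) and -0.12 ± 0.20 for Ryr3 (0.922). By the Fmr1 label they were 0.04 ± 0.30 (0.976) and -0.02 ± 0.20 (0.985), and both changed sign among the alternatives, Ryr2 running from -0.75 to 0.22 and Ryr3 from -0.42 to 0.06. Within day 26 Ryr2 was at 0.40 by the Fmr1 label, and within day 27 at -0.50.

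By postnatal day, with genotype in the fit, Ryr2 was the 1 member of 10 that passed. It was higher on day 27 than on day 26 by 0.99 ± 0.19 (adjusted p = 0.0138), where 5.83% of all genes passed. Ryr3 was at 0.46 ± 0.18 (adjusted p = 0.13). It reached the filter on low values through the day 27 libraries, which then had to be the higher ones. Of 19 fits without 1 library, Ryr3 stayed above the filter in 16. No support is drawn from its day difference. Neuron markers rose by day too, 6 of 9 passing with a median of 0.91, and none was at 0 in any library; their part in the Ryr2 result was not tested beyond the values that follow. The 4 libraries of highest neuron sum, all from day 27, included 3 of the 4 highest in Ryr2 and all 4 of the highest in Ryr3. Ryr2 did not pass without them (0.70, adjusted p = 0.113), with a replicate block (1.21, 0.185) or without WT replicate 1 (0.89, 0.0559). Without those 4 libraries, and with the block, 0 of all genes passed by day. Replicate number ran partly with day, numbers 5 and 6 being from day 27 only. The fit with the block therefore could not decide on a day difference.

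**Figure D2:**
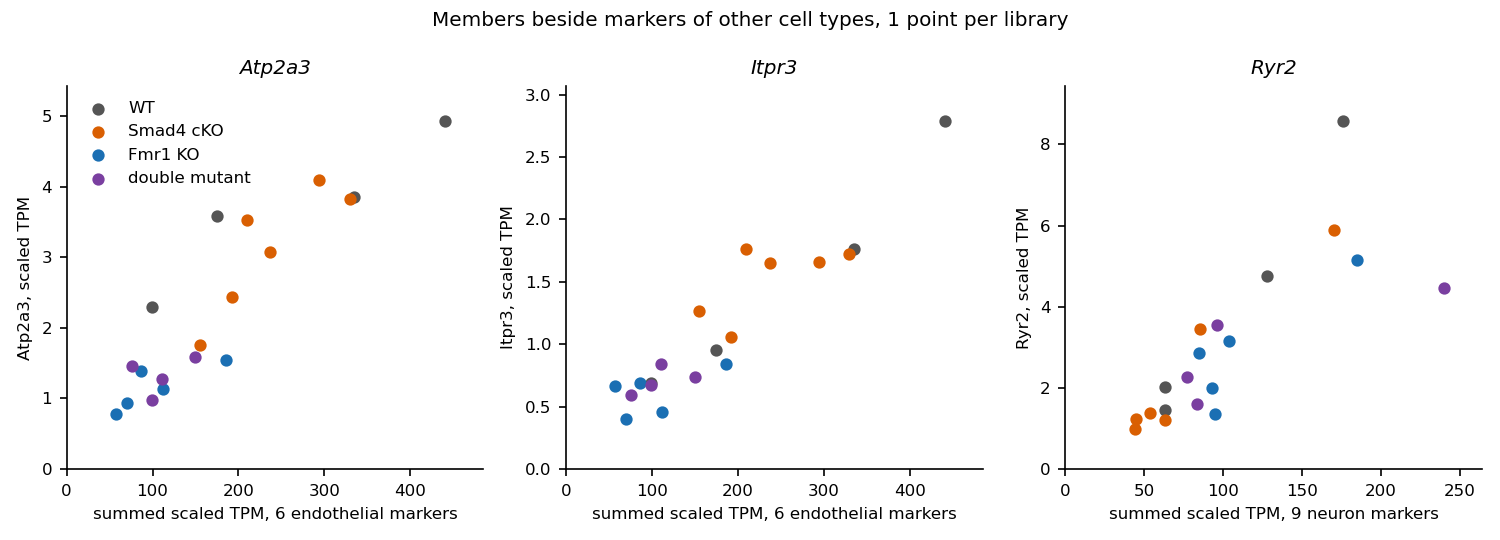
Each point is a library, coloured by genotype: Atp2a3 and Itpr3 against the summed scaled TPM of 6 endothelial markers, and Ryr2 against that of 9 neuron markers (y axes in scaled TPM). Libraries labelled Fmr1 KO lie at the left of the endothelial axis, at 57.5 to 186. That range also holds WT replicates 3 (99.6) and 4 (175) and Smad4 cKO replicate 2 (155). The libraries of highest Ryr2 lie to the right of the neuron axis.

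Of the SERCA pumps, the abundant form Atp2a2 did not pass by the Fmr1 label, and the rare form Atp2a3 separated by it. Atp2a2 (chromosome 5, 122453513 to 122502225, minus strand), the widespread form, was the most abundant member and ranked 478 of 24537 genes in WT. Its libraries held 116, 97.2, 113 and 103 scaled TPM in WT, 103 to 118 (median 109) in Smad4 cKO, 116, 157, 124, 125 and 117 in Fmr1 KO, and 139, 129, 144 and 113 in the double mutant. Values labelled Fmr1 KO (113 to 157) overlapped those labelled intact (97.2 to 118). The averaged difference was 0.25 ± 0.06 (SE, adjusted p = 0.0604). It was 0.27 within day 26 (4 labelled KO, 4 labelled intact) and 0.17 within day 27 (5 and 4). Atp2a2 passed in TPM as deposited (0.33, adjusted p = 0.0134) and without double mutant replicate 4 (0.28, 0.047). Without scaling the median of all genes also stood at 0.086.

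Atp2a3, the SERCA3 form known from endothelial, blood and some epithelial cells, was lower in every library labelled Fmr1 KO than in any labelled intact. WT libraries held 3.85, 4.93, 2.29 and 3.58 scaled TPM, and Smad4 cKO ran from 1.75 through 3.3 to 4.09. Fmr1 KO libraries held 1.39, 1.55, 1.14, 0.94 and 0.784, and double mutant libraries 1.58, 1.46, 1.27 and 0.974. The gap between the labels was narrow, from 1.58 to 1.75, and the share of all genes separated by this label was not counted. The group means were 3.66 ± 1.08 (SD, n = 4), 3.12 ± 0.886 (n = 6), 1.16 ± 0.316 (n = 5) and 1.32 ± 0.264 (n = 4) in the order WT, Smad4 cKO, Fmr1 KO and double mutant. WT was 3.15 times Fmr1 KO, and Smad4 cKO was 2.36 times the double mutant.

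On the log2(scaled TPM + 1) scale Atp2a3 differed by -1.09 ± 0.20 (SE) between Fmr1 KO and WT and by -0.80 ± 0.19 between the double mutant and Smad4 cKO, -0.95 ± 0.14 on average. The value was -0.81 within day 26 and -0.93 within day 27, and with a pseudocount of 0.1 it was -1.36. By the Smad4 label Atp2a3 differed by -0.04 ± 0.14. As a share of Atp2a1, Atp2a2 and Atp2a3 together it was 3.34% ± 1.16 (SD, n = 4), 2.74% ± 0.702 (n = 6), 0.894% ± 0.203 (n = 5) and 0.992% ± 0.145 (n = 4) in the same order of groups. By day it did not pass (-0.20 ± 0.14, adjusted p = 0.42).

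Endothelial markers were lower by the same label. Of 6 markers, Pecam1, Flt1, Tek and Slco1a4 passed as lower with the averaged Fmr1 label, Cldn5 and Cdh5 did not (adjusted p = 0.0683 and 0.0524), and none was at 0 in any library. The endothelial sum ran from 99.6 to 441 scaled TPM in WT (median 255), 155 to 330 in Smad4 cKO (224), 57.5 to 186 in Fmr1 KO (86.6) and 76.1 to 150 in the double mutant (105). WT replicate 3, of the lowest sum in its group (99.6), also held the group's lowest Atp2a3 (2.29). Fmr1 KO replicate 2, of the highest sum in its group (186), held the group's highest (1.55). At a similar sum, WT replicate 4 (175) held 3.58. In the double mutant, replicate 2 had the lowest sum (76.1) with Atp2a3 at 1.46, and replicate 4 (99.1) had the lowest Atp2a3 (0.974). With the log2 endothelial sum as a covariate the averaged Atp2a3 difference was -0.52, and the part of endothelial RNA in the difference was not tested.

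Genes most like Atp2a3 over the 19 libraries were, on levels, Arhgap29 (r = 0.962), the amino acid transporter Slc7a1 (0.936), the adenylyl cyclase Adcy4 (0.934), Ltbp4 (0.933) and the organic anion transporter Slc22a8 (0.931). On deviations from genotype means they were Mmrn2 (0.887), Arhgap29 (0.876), Tpm4 (0.86), Foxc1 (0.852) and Tbx3 (0.851). Arhgap29, a GTPase-activating protein gene, was thus the 1 gene among the 5 highest by both measures. Its group means were 10.6 ± 4.75 (SD, n = 4), 9.33 ± 2.35 (n = 6), 4.23 ± 0.949 (n = 5) and 4.73 ± 1 (n = 4) scaled TPM. Atp2a3 spans 72961169 to 72993044 on chromosome 11 (plus strand, GRCm38, protein-coding). The P2X receptor gene P2rx1 lies 6013 bases from it, with group means of 0.219 to 0.431 scaled TPM, below the filter. The kinase gene Camkk1, at 23000 bases, differed by 0.36 ± 0.08 (SE) with the averaged Smad4 label (adjusted p = 0.03), and passed in 16 of 27 alternatives and 10 of 19 fits without 1 library. It did not pass without WT replicate 1 or 3, Smad4 cKO replicate 2 or 3, Fmr1 KO replicate 3 or 5, or double mutant replicate 1, 3 or 4 (adjusted p from 0.052 to 0.0775). Zzef1 and Cyb5d2 on the other side did not pass by either label.

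**Figure D3:**
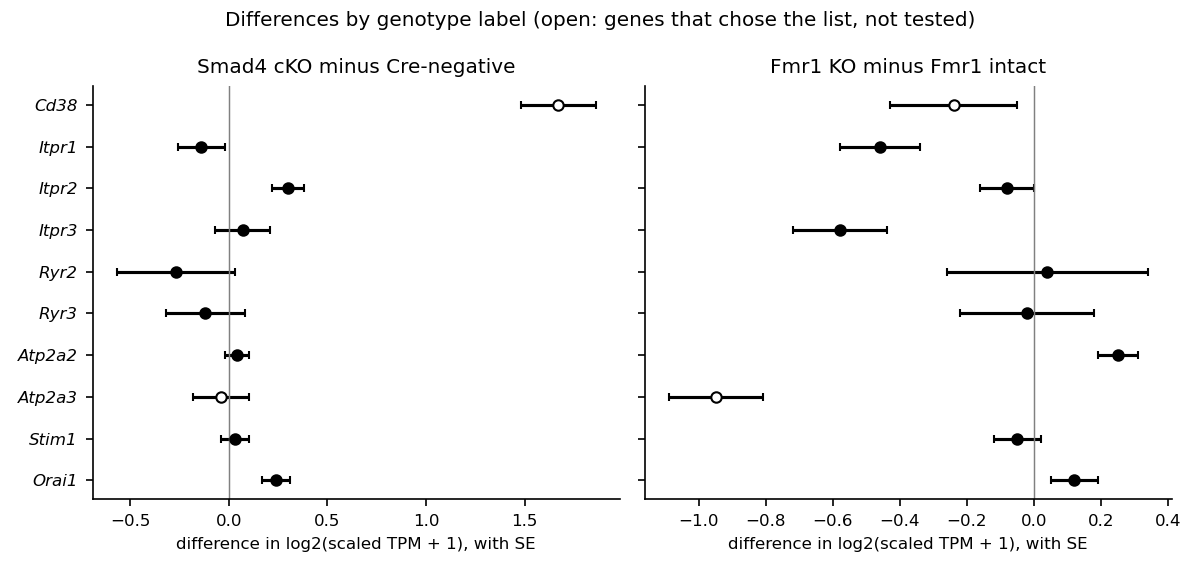
Difference in log2(scaled TPM + 1) of each member (x axes, bars SE) by the Smad4 label and by the Fmr1 label, each averaged over the other; open points are Cd38 and Atp2a3, which chose the list and were not tested. Cd38 lies at 1.67 on the left and Atp2a3 at -0.95 on the right, while the 8 tested members lie between -0.58 and 0.30, and none of them passed.

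Neither store-operated entry gene passed by a label. Stim1 (chromosome 7, 102267806 to 102437319, plus strand), the sensor, held 13.8, 15.4, 13.6 and 16.3 scaled TPM in WT, 13.2 to 17.5 (median 14.1) in Smad4 cKO, 12.7, 13.9, 12.5, 15.5 and 15.5 in Fmr1 KO, and 15.3, 12.5, 14 and 16.1 in the double mutant. All groups overlapped, and the averaged differences were 0.03 ± 0.07 (SE) by the Smad4 label (adjusted p = 0.961) and -0.05 ± 0.07 by the Fmr1 label (0.812). In TPM as deposited the second was 0.02. Orai1 (chromosome 5, 123015074 to 123030456, plus strand), the channel, was tight in WT at 22, 21.9, 21.4 and 22.3. It ran from 23.5 to 31.4 (median 27.8) in Smad4 cKO. These groups did not overlap, but Orai1 did not pass between them (adjusted p = 0.212 by limma). The share of all genes separated in this way was not counted. Fmr1 KO held 30.7, 20.2, 25.2, 25.4 and 24.5 and the double mutant 31.2, 27.6, 25.2 and 29.9, which did overlap. By the averaged Smad4 label Orai1 differed by 0.24 ± 0.07 (adjusted p = 0.095). It passed without Fmr1 KO replicate 1 (0.28, adjusted p = 0.0287), the highest library of its group, and without the libraries of highest neuron sum (0.32, 0.0228). Within day 26 the difference was 0.35 and within day 27 it was 0.12.

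Across the remaining comparisons the members gave no call. None of the 8 passed in Fmr1 KO against WT, where 0% of genes did by limma and 1239 had an unadjusted p under 0.05, or in the double mutant against Smad4 cKO, where 0.0199% did. None passed in the interaction, which tests whether the Smad4 difference depends on the Fmr1 label, where 0% of genes passed and 250 had an unadjusted p under 0.05. The largest interaction among the 8 was that of Ryr2, 0.63 ± 0.60 (SE). By mean level in WT the order was Atp2a2 (107), Itpr2 (27.8), Orai1 (21.9), Stim1 (14.8), Cd38 (9.71), Itpr1 (7.86), Ryr2 (4.20), Atp2a3 (3.66), Itpr3 (1.55) and Ryr3 (1.34). The WT ranges of the first 5 did not overlap, and from Cd38 down each gene overlapped the next. In Smad4 cKO the mean of Cd38 (33.9) lay between those of Itpr2 (35.6) and Orai1 (27.5), and its range overlapped both.

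Other genes of calcium handling were read as 11 lists of 147 genes, of which 122 passed the filter. With the averaged Smad4 label 1 was higher and 1 lower, against 1.81% of all genes, and the median of the 122 was 0. Plcl1, a phospholipase C-like protein without catalytic activity that binds IP3, rose by 0.48 ± 0.11 (SE, adjusted p = 0.0287). Its WT mean was 41.6 ± 7.05 scaled TPM (SD, n = 4) against 61.8 ± 8.85 (n = 6) for Smad4 cKO, and its Fmr1 KO mean 44.8 ± 10.6 (n = 5) against 58.3 ± 5.61 (n = 4) for the double mutant. Slc8b1, the sodium-calcium exchanger of mitochondria, fell by 0.29 ± 0.06 (adjusted p = 0.0161), from 40.4 ± 2.16 (n = 4) to 34 ± 3.59 (n = 6) and from 40.5 ± 4.83 (n = 5) to 32 ± 2.22 (n = 4). Slc8b1 passed in all 19 fits without 1 library and Plcl1 in 11 of 19. Plcl1 did not pass without WT replicate 1 or 3, Smad4 cKO replicate 1 or 4, Fmr1 KO replicate 1 or 2, or double mutant replicate 3 or 4 (adjusted p from 0.0501 to 0.0769). Neither passed with a replicate block (adjusted p = 0.0541 and 0.0507) or without the libraries of highest neuron sum (0.13 and 0.17).

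The 17 genes of cyclic ADP-ribose, NAADP and NAD metabolism, the pathway nearest to CD38, gave 0 of 15 tested by the averaged Smad4 label, with a median of 0.05. With 1.81% of all genes passing, a count of 0 says little in lists as small as these. Sarm1, which like CD38 cleaves NAD, was at -0.22 ± 0.13 (adjusted p = 0.636), and Nmrk1, a kinase of NAD synthesis, at 0.11 ± 0.07. Of 5 tested genes listed under lysosomal and NAADP-gated channels 0 passed (median 0), Tpcn2 being at 0.15 ± 0.06. Among the 5 were Hn1l and Lsm12, which do not encode channels. Of 14 tested genes listed under IP3 production, Plcl1 alone passed (median 0.01), and it encodes no active enzyme. Of 7 genes listed under IP3 removal 0 passed (median -0.08). That list includes Inpp1, Inpp4a and Inpp4b, phosphatases that do not act on IP3 itself. Of 14 Gq-coupled receptors 0 passed, with a median of -0.15 and 4 above 0. Ednrb, the endothelin receptor of astrocytes, was at 0.42 ± 0.14 (adjusted p = 0.191). Of 12 other store-operated entry genes 0 passed, with Tmem110, a STIM-activating protein, at 0.19 ± 0.06 (0.118). The regulators of both receptor classes, the other SERCA and ryanodine genes, the store calcium-binding proteins and the plasma membrane and Golgi pumps gave 0 each.

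With the averaged Fmr1 label 0 of the 122 passed, against 1.53% of all genes, and their median was 0.02. The smallest p belonged to Vdac1, the outer mitochondrial channel, at 0.17 ± 0.04 (SE, adjusted p = 0.0515), and to Stim2, the other store sensor, at 0.20 ± 0.05 (0.0782). Stim2 means were 10.6 ± 0.852 scaled TPM (SD, n = 4) in WT and 12.4 ± 0.915 (n = 5) in Fmr1 KO. Both passed in TPM as deposited (0.014 and 0.0245), where without scaling the median of all genes stood at 0.086. Over 27 alternatives Vdac1 passed in 5 and Stim2 in 1. Cracr2b, a calcium-binding regulator of ORAI channels, was at -0.76 ± 0.25 (0.163), and at -0.05 with the endothelial marker sum as a covariate. The part of endothelial RNA in the Cracr2b difference was not tested. The exchanger Slc24a4 was at -0.92 ± 0.32 (0.192). Of the 7 genes listed under IP3 removal, Inpp1, Inpp4a and Inpp4b again included, 0 were above 0 (median -0.12). Of 14 Gq-coupled receptors 12 were (median 0.13), with 0 passing in either list.

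**Figure D4:**
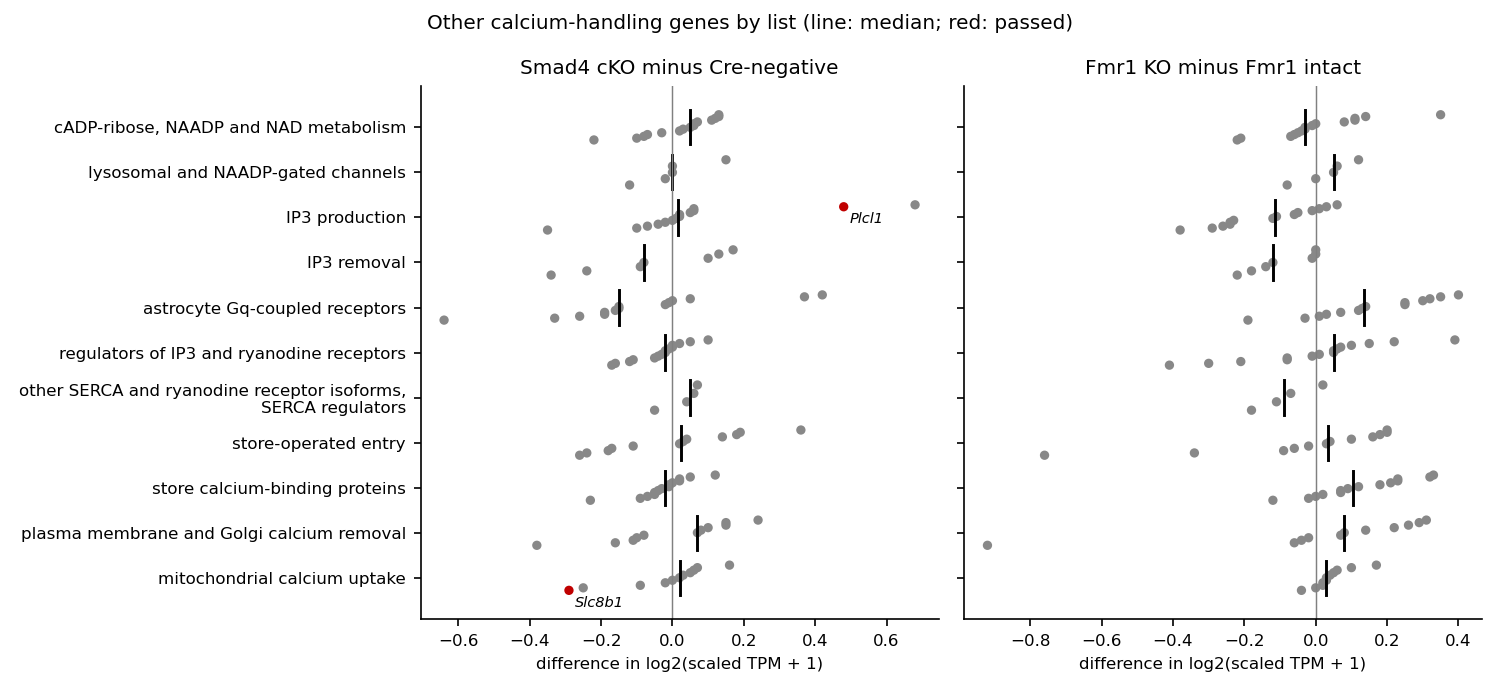
Difference in log2(scaled TPM + 1) of each tested gene of 11 calcium-handling lists (x axes) by the averaged Smad4 label and the averaged Fmr1 label; each point is a gene, the black line the list's median, red a gene that passed. Medians lie between -0.15 and 0.13, and the 2 genes that passed, Plcl1 at 0.48 and Slc8b1 at -0.29, did so by the Smad4 label.

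By day 11 of the 122 were higher and 11 lower on day 27, against 5.83% of all genes. The lower ones included 7 of 14 store calcium-binding proteins, the chaperones and disulfide isomerases Calr, Canx, Hspa5, Hsp90b1, Pdia3, Pdia4 and Pdia6, with Calr at -0.82 ± 0.20 (SE, adjusted p = 0.0282) and Pdia4 at -0.48 ± 0.07 (0.00942). The higher ones included 5 of 14 Gq-coupled receptors (Grm5, Adra1a, Adra1d, Chrm3 and Htr2a), with Chrm3 at 1.02 ± 0.17 (0.00982). The genes named here for day were chosen after their values were seen. Of 48 cell-type markers 6 neuron markers were higher, and 2 astrocyte, 2 oligodendrocyte precursor and 1 microglia marker were lower. Without WT replicate 1, 3 of the 122 passed by day. None of the 122 passed by day with a replicate block, which runs partly with day, or without the 4 libraries of highest neuron sum.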

How the data were processed

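The authors deposited TPM values of 24537 genes in 19 libraries of nuclear RNA, depleted of ribosomal RNA per the labels' protocols. Per the submitters' processing notes, the tools were bcl2fastq 2.20, MultiQC 1.0, STAR 2.5.3a and HOMER 4.10.4, with mm10. The sources used here do not give whether exons or gene bodies were counted, or the strand, so overlapping genes and close copies may share reads. Depth is unknown.

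TPM were divided by a median-of-ratios factor per library. log2(scaled TPM + 1) of 15049 genes, those averaging at least 1 TPM, was fitted by genotype with limma 3.58.1 (trend, R 4.3.3) over all libraries, with postnatal day as a further factor for day 27 against day 26. Every adjusted p is limma's, by Benjamini-Hochberg over all 15049 genes; genes passed under 0.05. No 2 libraries were identical. The fit was tested on simulated data.

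The members and lists were chosen with earlier results of these data known. Named genes were all members, the called genes of each list by averaged label or else some of the 2 of smallest p, and the 5 most like Cd38 and Atp2a3. Gene positions are those of GENCODE vM21; neighbours, 2 on each side, and their distances are those of RefSeq on GRCm38.p6. Alternatives changed scaling, pseudocount, filter, covariates and libraries. Figures used matplotlib 3.10.9.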

Additional observations from a re-analysis of the deposited data

Results flagged for a closer look

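Of 40 groups examined, 10 members in 4 genotypes, 2 held a library far from the rest of its group by Dixon's criterion, and chance flags about 1 in 20 groups. Itpr1 in Smad4 cKO replicate 6 was 10.4 scaled TPM, where the other 5 lay between 5.17 and 6.9. The neuron-marker sum of that library was 170, the highest of its group. Atp2a2 in Fmr1 KO replicate 2 was 157 scaled TPM, where the other 4 lay between 116 and 125. That library also had the highest astrocyte-marker sum of all 19, 7760, and the highest Cd38 of its group, 16.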

How the results depend on the processing

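Cd38 by the Smad4 label and Atp2a3 by the Fmr1 label had the same sign under every alternative run. These differences chose the list, and the alternatives refit the same libraries, so no support is drawn from that. The counts of genes that passed moved with the alternatives. In Smad4 cKO against WT 118 became 63 with a replicate block, 62 when only those groups were fitted and 64 without the library of highest neuron-marker sum in each genotype, the last an alternative chosen after seeing the data. In the double mutant against Fmr1 KO 61 became 21, 20 and 24, and in the double mutant against Smad4 cKO 3 became 0, 0 and 0, and 0 with the endothelial marker sum as a covariate, also chosen after seeing the data. Fmr1 KO against WT went from 0 to 84 without the libraries of highest neuron sum.

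By the averaged Fmr1 label 230 genes (45 higher, 185 lower) became 607 (420 higher, 187 lower) in TPM as deposited, with 2 members and 3 list genes among them, 110 with a mean of at least 5 TPM, 2 with a replicate block, 21 with day as a factor and 1 with the endothelial covariate. Members passing there, 0 in the main fit, were 1 with a pseudocount of 0.1, 1 with no filter (and 2 list genes) and 2 without the libraries of highest neuron sum, Itpr3 being among them each time. By the averaged Smad4 label 1 member passed in TPM as deposited and 1 without those libraries, while list genes fell to 0 without them and to 0 with the block. By day 878 genes became 312 with a mean of at least 5 TPM (0 members, 10 list genes), and 0 genes, 0 members and 0 list genes both with the block and without those libraries. The block runs partly with day, and the libraries of highest neuron sum were all from day 27, so neither fit decides on the day results. The cause of these changes in count was not tested.

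Leaving out 1 library at a time gave 27 (without Fmr1 KO replicate 5) to 62 genes for the double mutant against Fmr1 KO, 0 to 164 (without WT replicate 3) for Fmr1 KO against WT and 0 to 4 for the double mutant against Smad4 cKO. It gave 44 (without double mutant replicate 2) to 393 (without WT replicate 3) for the averaged Fmr1 label, with 0 to 1 members and 0 to 1 list genes. By the averaged Smad4 label it gave 0 to 1 members and 1 to 3 list genes. By day it gave 114 (without WT replicate 1) to 1109 genes, 0 to 1 members and 3 to 25 list genes.

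Replicate numbers did not pair the libraries: of 25 same-number pairs 5 had a correlation of deviations over 0.1, from -0.266 to 0.202, and 3 of 19 libraries correlated best with their own number.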
